A study of Caenorhabditis elegans with 6 samples.

Results

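The genes described here are 10 cuticle collagen genes of the nematode Caenorhabditis elegans that are known for mutants with a changed body shape, a rolling gait or a blistered cuticle, and that lie outside the group of furrow collagens. They are sqt-1, sqt-2, sqt-3, rol-6, rol-8, dpy-13, dpy-14, dpy-17, ram-2 and bli-1. The members were chosen by name, and all 10 were found among the 46950 rows of the deposited expression table. The table covers polyadenylated RNA of whole worms in 6 libraries, 3 from worms exposed to terahertz radiation (THz 1 to 3) and 3 from untreated control worms (Control 1 to 3). The series title gives the frequency as 0.26 THz. The sources used here do not give strain, stage, sex, temperature, power density or length of exposure. The labels also do not say if the libraries of 1 group are separate cultures, so the p-values below reflect the spread between libraries, part of which may be technical.

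The cuticle of the worm is a layered extracellular coat made largely of collagens that the epidermis secretes. A new cuticle is made in the embryo and before each larval moult, and the collagen genes are switched on in pulses that follow this cycle. Each procollagen is trimmed by proteases, hydroxylated, assembled into trimers and crosslinked outside the cell, and loss or alteration of single chains gives short and fat (Dpy), rolling (Rol), squat (Sqt) or blistered (Bli) animals.

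The first question is which of these genes differed after the exposure. No member passed the threshold in the main test, an unweighted limma fit without covariates on all 6 libraries. Some alternative fits called members, as described below. The gene ram-2 had 10.6 ± 1.27 FPKM in THz worms and 27.2 ± 5.11 FPKM in Control worms, and rol-8 had 1.92 ± 0.586 FPKM in THz worms and 3.79 ± 0.453 FPKM in Control worms (SD, n = 3 each). FPKM is the number of fragments per kilobase of gene, scaled to library depth. These were the only 2 members whose THz libraries all lay below all Control libraries. In 7 others Control 2 was lower than every other library, and the spread between the Control libraries was larger than the difference between the groups. The 3 most abundant members, dpy-14, dpy-17 and sqt-3, were lower in every THz library than in Control 1 and Control 3 and higher in every THz library than in Control 2.

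Libraries held between 19079440 and 21977418 counted reads, recovered from the FPKM values. Expression of whole worms was most alike among the THz libraries, where 1.95% of the 12174 genes tested spanned more than 1 on the log2 scale, against 13.8% among the Control libraries. The marker lists of epidermis, body wall muscle, intestine, neurons and germline were all detected in all 6 libraries, which the labels describe as whole body, and 1 of the 8 sperm markers was at 0 in at least 1 library. In RNA from whole worms, fewer cells or animals at a stage and less RNA per cell cannot be told apart.

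The members are short genes of similar build, apart from bli-1. In the Ensembl annotation of the build WBcel235, 9 of them encode proteins of 298 (sqt-2) to 352 residues (dpy-17), and bli-1 encodes 948 residues in 5 exons. In the coordinates of the deposited table, 6 lie on chromosome II, which holds 17.2% of the protein-coding genes of the table. These are sqt-2 (23328 to 24458), rol-8 (7544069 to 7545335), rol-6 (8733050 to 8734314), bli-1 (10708765 to 10712156), ram-2 (11015588 to 11016881) and sqt-1 (11336693 to 11337837). The gene dpy-14 lies on chromosome I (6843589 to 6845134), dpy-17 on chromosome III (5107330 to 5108497), dpy-13 on chromosome IV (4235614 to 4236710) and sqt-3 on chromosome V (12352994 to 12354314). The whole span of bli-1 lies within that of dph-2, a gene on the opposite strand. An overlap with the exons of dph-2 was not examined, and the counting is not stated to use strand. It is therefore not known if the reads of these genes were kept apart. Cuticle collagens resemble each other, and how reads with several matches were counted is not given in the sources used here.

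Levels differed widely among the members. FPKM is given per length, so levels can be compared between genes. In all 6 libraries the order of the first 4 was dpy-14, dpy-17, sqt-3 and ram-2. Over the 6 libraries dpy-14 averaged 259 FPKM, dpy-17 averaged 236 FPKM and sqt-3 averaged 199.9 FPKM. The genes dpy-14 and dpy-17, next to each other in this order of levels, differed by less than their spread between libraries, although dpy-14 was the higher in all 6. These 3 genes made up 86.9% to 96.9% of the summed FPKM of the 10 members. The gene ram-2 averaged 18.9 FPKM and dpy-13 averaged 4.57 FPKM. The next 4, rol-8 (2.85 FPKM), sqt-2 (2.09 FPKM), sqt-1 (1.98 FPKM) and rol-6 (1.42 FPKM), changed places between libraries, and rol-8 lay above dpy-13 in Control 1 and Control 2. The lowest mean belonged to bli-1, at 0.183 FPKM, but in Control 2 sqt-1, sqt-2 and rol-6 lay below it.

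**Figure D1:**
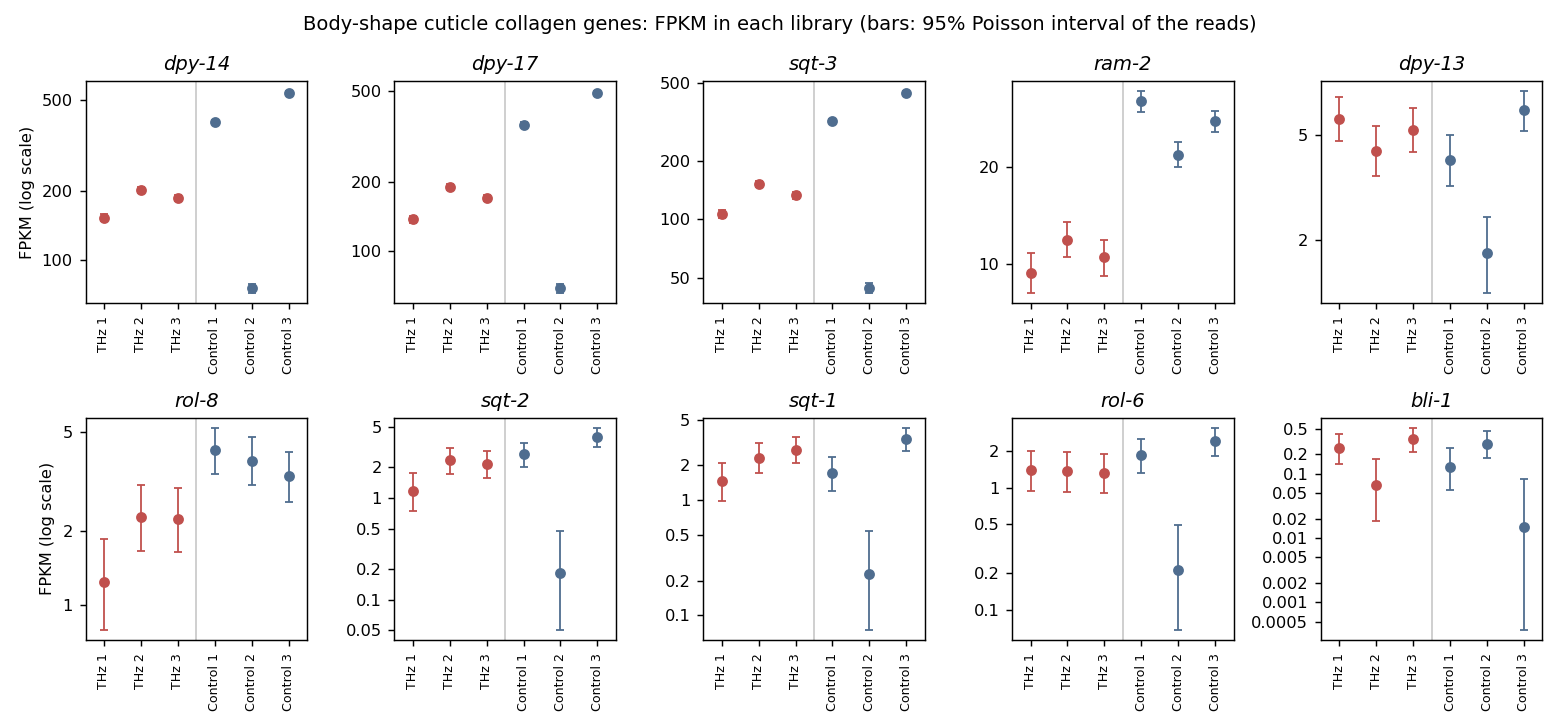
FPKM of each of the 10 genes (vertical axis, log scale, a separate range per panel) in the 3 THz libraries (red) and the 3 Control libraries (blue), with bars for the 95% Poisson interval of the reads. Control 2 is the lowest library for 7 genes, from dpy-14 (75.4 FPKM) to sqt-2 (0.185 FPKM), while ram-2 and rol-8 are lower in the THz libraries than in every Control library.

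The abundant members dpy-14, dpy-17 and sqt-3 are named for dumpy and squat mutants. SQT-3 and DPY-17 are both substrates of the astacin protease DPY-31, which trims their ends. The gene dpy-14 had 153, 203 and 187 FPKM in the THz libraries 1 to 3, against 399, 75.4 and 535 FPKM in the Control libraries 1 to 3. The THz values lay between Control 2 on one side and Control 1 and Control 3 on the other. The gene dpy-17 had 138, 191 and 170.4 FPKM in the THz libraries, against 357, 68.8 and 491 FPKM in the Control libraries. The gene sqt-3 had 106, 151 and 132 FPKM in the THz libraries, against 319, 44.4 and 446 FPKM in the Control libraries. Both repeated the order of the libraries seen for dpy-14. With limma on log2(FPKM + 1), the log2 difference of THz from Control was -0.49 ± 0.65 for dpy-14, -0.48 ± 0.65 for dpy-17 and -0.52 ± 0.76 for sqt-3 (SE), with adjusted p of 0.884, 0.887 and 0.891. Each value rests on 985 or more reads, so counting error is small beside the spread between the Control libraries.

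The ratio between these 3 genes varied far less than their levels. The FPKM of dpy-17 divided by that of dpy-14 was 0.900, 0.945 and 0.912 in the THz libraries and 0.895, 0.913 and 0.918 in the Control libraries. The lowest of these had an exact 95% interval of 0.868 to 0.923 and the highest one of 0.904 to 0.986, for counting error only. The levels themselves spanned 7.10-fold between Control 3 and Control 2 for dpy-14 and 7.13-fold for dpy-17. The ratio of sqt-3 to dpy-14 was 0.695, 0.746 and 0.709 in the THz libraries and 0.800, 0.589 and 0.834 in the Control libraries. It was lowest in the library where all 3 genes were lowest and highest where they were highest.

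The roller and squat collagens sqt-1, sqt-2 and rol-6 were expressed at a low level with a similar pattern. SQT-1 and ROL-6 are known to act together, since the rolling caused by rol-6 mutants depends on sqt-1. The gene sqt-1 had 1.47, 2.34 and 2.75 FPKM in the THz libraries, against 1.72, 0.230 and 3.39 FPKM in the Control libraries. The gene sqt-2 had 1.17, 2.35 and 2.15 FPKM in the THz libraries, against 2.69, 0.185 and 3.99 FPKM in the Control libraries. The gene rol-6 had 1.40, 1.37 and 1.32 FPKM in the THz libraries, against 1.84, 0.211 and 2.38 FPKM in the Control libraries. Control 2 was again far below the rest, with 5, 4 and 5 reads for sqt-1, sqt-2 and rol-6. The THz libraries of rol-6 differed by less than their counting error, at 30, 30 and 31 reads. The log2 differences were 0.36 ± 0.44, 0.03 ± 0.51 and 0.06 ± 0.37 for sqt-1, sqt-2 and rol-6, with adjusted p of 0.881, 0.994 and 0.980 from limma.

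The dumpy gene dpy-13 had 5.78, 4.37 and 5.25 FPKM in the THz libraries, against 4.03, 1.78 and 6.21 FPKM in the Control libraries. Loss of this collagen makes short, fat worms. All 3 THz libraries lay above Control 1 and Control 2 and below Control 3. The log2 difference was 0.39 ± 0.34 with an adjusted p of 0.834 from limma. Without Control 3 it was 0.71, and without Control 2 it was 0.02.

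The genes ram-2 and rol-8 were the members in which Control 2 did not stand apart. The name of ram-2 refers to the misshapen sensory rays of the male tail in its mutants, and rol-8, a collagen gene also listed as cuticle collagen 6, is named for its rolling mutants. The gene ram-2 had 9.35, 11.9 and 10.4 FPKM in the THz libraries, against 32.04, 21.9 and 27.8 FPKM in the Control libraries. The values rest on 193 to 250 reads in the THz libraries and 498 to 704 reads in the Control libraries, and the groups did not overlap. The gene rol-8 had 1.24, 2.28 and 2.23 FPKM in the THz libraries, against 4.22, 3.84 and 3.32 FPKM in the Control libraries, from 24, 45 and 47 reads against 87, 82 and 74. Its groups did not overlap either, and its highest THz library and lowest Control library had overlapping counting intervals. All 3 THz libraries lay below all 3 Control libraries for 7.33% of the genes tested, and above them for 6.44%. For ram-2 the log2 difference was -1.28 ± 0.16 with an unadjusted p of 7.52e-05 and an adjusted p of 0.372 from limma, the second smallest p of the 12174 genes. For rol-8 the log2 difference was -0.73 ± 0.22 with an unadjusted p of 0.0102 and an adjusted p of 0.823. The smallest p that exact permutation of 3 against 3 libraries allows is 0.1, so that test was not used.

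The blister collagen bli-1, which forms the struts of the adult cuticle, was near the limit of detection. It had 0.254, 0.0665 and 0.342 FPKM in the THz libraries, against 0.127, 0.292 and 0.0147 FPKM in the Control libraries. These are 15, 4 and 22 reads in the THz libraries, against 8, 19 and 1 in the Control libraries. The order of the Control libraries was the reverse of that for the abundant members, with Control 2 the highest. The gene was left out of the main test because no library reached 1 FPKM. It was tested in 2 alternatives and called in neither. Its log2 difference was 0.09 with limma without a filter (adjusted p = 0.878) and 1.01 with voom on recovered reads (adjusted p = 0.869). The gene dph-2, whose span covers it, had 22.4 to 25.02 FPKM in the THz libraries and 20.4 to 24.96 FPKM in the Control libraries.

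Of the 12174 genes in the main test with limma, 0 passed an adjusted p of 0.05, which is 0% as background for the 0 of 9 members. Before adjustment 714 genes (5.86%) had a p under 0.05, 488 of them lower in THz worms (4.01%), and 2 of the 9 members, ram-2 and rol-8, were among these 488. On recovered reads, voom gave 0 calls too, in a wider set of 13642 genes and all 10 members. That set held genes with 10 or more reads in 3 or more libraries. Of these 13642 genes, 774 had a p under 0.05 from voom before adjustment. The log2 difference was below 0 for 5 of the 9 members and for 49.5% of all genes. For sqt-2 and rol-6 that difference was above 0, although mean FPKM was lower in THz worms (1.89 against 2.29 and 1.36 against 1.48). The median log2 difference over the 9 members was -0.48, against 0.00 over all genes tested.

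**Figure D2:**
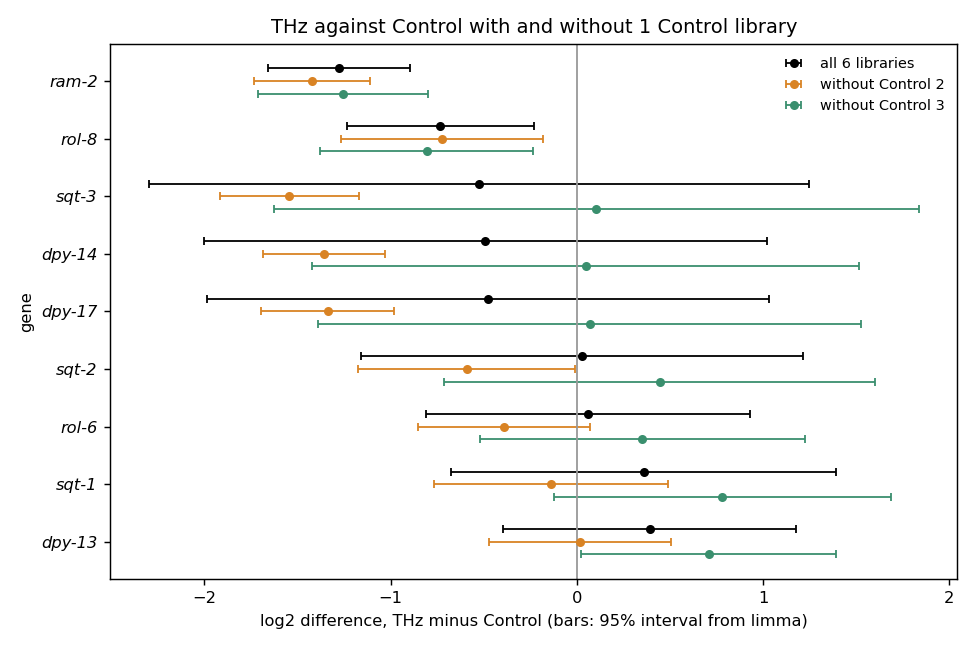
Log2 difference of THz from Control (horizontal axis, bars for the 95% interval from limma) for the 9 genes tested, with all 6 libraries (black), without Control 2 (orange) and without Control 3 (green). The values of ram-2 stay between -1.42 and -1.26, whereas sqt-3 lies at -0.52 with all libraries, at -1.54 without Control 2 and at 0.11 without Control 3.

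Leaving out Control 2 changed which members passed. Without it 4 of the 9 members were called lower in THz worms, against 1.92% of all genes called and 1.83% called lower. They were ram-2 (log2 difference -1.42, adjusted p = 0.00563 from limma), sqt-3 (-1.54, adjusted p = 0.00596), dpy-14 (-1.36, adjusted p = 0.00596) and dpy-17 (-1.34, adjusted p = 0.00821). The gene rol-8 kept a difference of -0.72 with an adjusted p of 0.176. Control 2 itself lay below every THz library for the last 3. Without Control 3 the differences were 0.11 for sqt-3, 0.048 for dpy-14 and 0.070 for dpy-17, so the direction of these 3 depends on which Control library is used. The difference of ram-2 was then -1.26 with an adjusted p of 0.304. With weights estimated for each library, 5 members were called lower, ram-2, rol-8, sqt-3, dpy-14 and dpy-17, against 11.7% of all genes called lower and 25.4% called in either direction. No label or header names a batch that would set Control 2 or Control 3 apart.

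The gap between Control 2 and Control 3 was wider for most members than for most genes. Control 3 exceeded Control 2 by more than 1 on the log2(FPKM + 1) scale in 7 of the 9 members tested, against 8.15% of all genes. Control 2 was the lowest and Control 3 the highest library for these 7. Comparing this pair, in this direction, therefore favours a wide gap in the members over other genes. In FPKM, Control 3 was 21.6 times Control 2 for sqt-2 (exact 95% interval 8.13 to 80.8), 14.8 times for sqt-1 (6.06 to 46.7) and 11.3 times for rol-6 (4.58 to 36.1). It was 10.04 times for sqt-3 (9.41 to 10.7) and 3.50 times for dpy-13 (2.41 to 5.17). The gap of sqt-3 ranked 22 of 12174 genes, that of dpy-17 ranked 54 and that of dpy-14 ranked 56. By contrast the ratio was 1.27 for ram-2 (1.13 to 1.43) and 0.865 for rol-8 (0.623 to 1.20). These ratios compare single libraries, and their intervals cover counting error only.

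**Figure D3:**
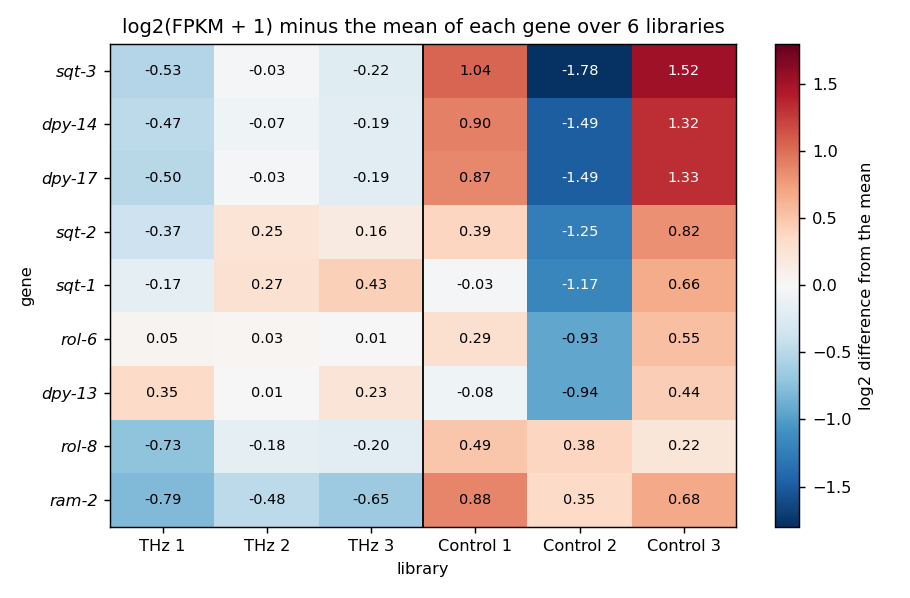
Heat map of log2(FPKM + 1) minus the mean of each gene over the 6 libraries, for the 9 genes tested (rows) in the THz libraries (left) and the Control libraries (right). The first 7 rows share a low Control 2 and a high Control 3, and the last 2, rol-8 and ram-2, are below their mean in all THz libraries and above it in all Control libraries.

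Likeness between profiles was measured as the root mean square difference of the centred log2 values over the 6 libraries, where 0 means the same profile. The closest pair of members was dpy-14 and dpy-17, at 0.0247, and no gene outside the members was as close to either. The outside gene closest to both was dpy-2, a furrow collagen, at 0.0785 from dpy-14 and 0.0798 from dpy-17. It had 7.20, 9.67 and 7.88 FPKM in the THz libraries, against 19.1, 3.23 and 25.02 FPKM in the Control libraries. The members closest to sqt-3 and to sqt-1 were dpy-14 (0.158) and sqt-2 (0.232), while rol-6 and dpy-13 were closest to each other (0.221). The genes ram-2 and rol-8 were also closest to each other among the members, but at 0.332. Outside the members, ram-2 was closest to dpy-1 (0.203), which had 0.777, 0.926 and 0.751 FPKM in the THz libraries, against 2.93, 1.63 and 3.13 FPKM in the Control libraries. The other outside genes closest to 1 member each were K04H4.2 for sqt-3 (0.0865), btb-8 for sqt-1 (0.0670), C05A9.2 for sqt-2 (0.104), F33E2.5 for rol-6 (0.0603), C07A9.12 for rol-8 (0.0872) and Y41G9A.10 for dpy-13 (0.0817). The genes closest to the mean profile of the 9 members were nnt-1, F53B3.3, T01D3.3, Y41D4B.6 and nspc-16, at 0.0492 to 0.0843. A pseudocount of 1 narrows the profile of genes with a few FPKM, so likeness between abundant and scarce genes is measured on unequal ranges.

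The other genes of cuticle formation were described from lists. None of their members passed the main test. All 6 furrow collagens, which form the circumferential grooves of the cuticle, had a negative log2 difference, with a median of -0.52, against 0.00 over all genes. The smallest p among them belonged to dpy-3, with 11.5, 14.9 and 17.4 FPKM in the THz libraries, against 41.04, 7.07 and 52.9 FPKM in the Control libraries, and to dpy-10, with a log2 difference of -0.54 ± 0.53. Control 2 was the lowest library for both, as for the abundant members. Of the 6 other named shape and blister collagens 4 were tested, 3 with a negative and 1 with a positive difference. The smallest p belonged to dpy-5 (log2 difference 0.48 ± 0.38) and lon-3 (-0.35 ± 0.41). Of the 16 enzymes and partners that process and crosslink collagen, 13 were tested, 8 with a negative and 5 with a positive difference, with a median of -0.06. The smallest p belonged to phy-2, a collagen prolyl 4-hydroxylase (-0.73 ± 0.14, adjusted p = 0.612 from limma), and to bli-4, a protease that cleaves procollagens (0.08 ± 0.07). In none of the 13 were Control 3 and Control 2 more than 1 log2 unit apart. Of the 89 numbered col genes tested, 72 had a negative and 17 a positive difference, with a median of -0.19. Among 23 moulting regulators and other moulting genes that encode no collagen, 19 had a negative difference, with a median of -0.21. The smallest p belonged to the transcription factor gene blmp-1 (-0.54 ± 0.25) and the kinase gene nekl-2 (-0.34 ± 0.16).

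Gene lists of the cuticle did not all move with the members between the Control libraries. Control 3 exceeded Control 2 by more than 1 on the log2 scale in 5 of 6 furrow collagens and in 14 of 23 moulting genes. In none of these was it lower by more than 1. Of the 89 numbered col genes tested, 20 were higher in Control 3 by more than 1 and 45 were lower, with a median of -1.01, where the median was 1.84 over the members and 0.05 over all genes. In the 4 tested genes of the other named shape and blister collagens, 2 were higher in Control 3 by more than 1 and 1 was lower, with a median of 0.94. The lower one was bli-6, named here after its values were seen, at 1.25 FPKM in Control 3 and 14.1 FPKM in Control 2. Cuticle collagens thus differed in both directions between these 2 libraries.

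**Figure D4:**
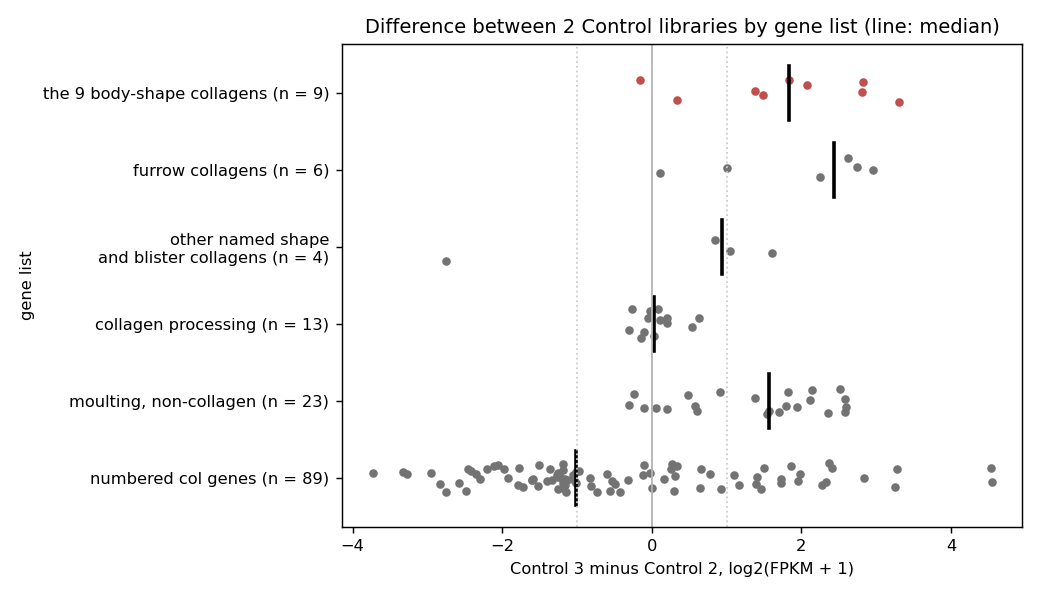
Difference between Control 3 and Control 2 in log2(FPKM + 1) (horizontal axis, each point 1 gene, black line the median) for the 9 tested genes (red) and 5 other lists. The medians are 1.84 for the 9 genes, 2.44 for furrow collagens, 1.57 for the moulting genes, 0.03 for the processing genes and -1.01 for the numbered col genes.

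Scores of the moulting and epidermis lists ordered the Control libraries as the members did, and the score of sperm markers gave the reverse order. A score is the mean over a list of log2(FPKM + 1) after subtracting the mean of each gene. The members scored -0.35, -0.02 and -0.07 in the THz libraries and 0.53, -0.92 and 0.84 in the Control libraries. The moulting list without collagens scored -0.32, 0.09 and -0.14 in the THz libraries and 0.29, -0.63 and 0.71 in the Control libraries, and its summed level was 191 to 248 FPKM in the THz libraries and 151 to 408 FPKM in the Control libraries. Epidermis markers, 6 of 7 of them tested, scored -0.29, 0.10 and -0.05 in the THz libraries and 0.15, -0.33 and 0.42 in the Control libraries. Control 3 exceeded Control 2 by more than 1 on the log2 scale in only 2 of these 6. Their summed level was 143 to 173 FPKM in the THz libraries and 138 to 195 FPKM in the Control libraries. Sperm markers, 6 of 8 tested, scored 0.18, -0.11 and 0.21 in the THz libraries and 0.16, 0.46 and -0.90 in the Control libraries, with a summed level of 39.02 to 54.6 FPKM in the THz libraries and 20.2 to 64.1 FPKM in the Control libraries. Germline and oocyte markers had a log2 difference above 0 in all 9 genes, with a summed level of 3887 to 4144 FPKM in the THz libraries and 3475 to 3736 FPKM in the Control libraries. Body wall muscle markers had a log2 difference below 0 in all 8 genes. In 4 of them all THz libraries lay below all Control libraries, against 7.33% of all genes tested. Their summed level was 3055 to 3490 FPKM in the THz libraries and 3477 to 4812 FPKM in the Control libraries. Neuron markers had a log2 difference below 0 in 7 of 8 genes, with a median of -0.30. All THz libraries lay below all Control libraries in 4 of the 8, against the same 7.33% of all genes. Their summed level was 332 to 341 FPKM in the THz libraries and 349.96 to 361 FPKM in the Control libraries. Intestine markers had a difference below 0 in 5 of 8 genes, with a median of -0.05 and a summed level of 12534 to 13229 FPKM in the THz libraries and 11569 to 14429 FPKM in the Control libraries. With the moulting score as a covariate, the log2 difference was -1.19 for ram-2 (adjusted p = 0.0281 from limma) and -0.73 for rol-8 (adjusted p = 0.171), and it was 0.088 for sqt-3, 0.029 for dpy-14 and 0.048 for dpy-17. In the same fit it was 0.69 for sqt-1, 0.42 for sqt-2, 0.32 for rol-6 and 0.61 for dpy-13. These were higher than the 0.36, 0.03, 0.06 and 0.39 of the main test. Their adjusted p in the covariate fit ran from 0.165 to 0.435 from limma. That fit called 0.444% of all genes. The score comes from the same 6 libraries and follows the order of the members' scores in the Control libraries. Smaller differences for sqt-3, dpy-14 and dpy-17 and higher ones for sqt-1, sqt-2, rol-6 and dpy-13 are therefore built into that fit. The part of moulting and of the other marker lists in these differences was not tested.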

How the data were processed

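Per the labels' protocols, RNA of whole worms was isolated with TRIzol, and the TruSeq RNA v2 kit served for polyadenylated libraries. WBcel235 is the build, and HTSeq 0.5.4, STAR and DESeq 1.10.1 are the tools, listed in the submitters' processing notes without saying what each did. The authors deposited FPKM, 1 value for each gene in each library, and this unit was used throughout. The length column, another value the authors deposited, was used to recover reads: FPKM times length is a whole multiple of 1 step per library for 88.8% of values (tolerance 0.05 reads) and for 54 of the 60 member values. The rest were rounded.

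Groups were compared on log2(FPKM + 1) with limma 3.58.1 (R 4.3.3), two-sided, letting the variance follow the mean. Genes at or above 1 FPKM in 3 or more libraries were kept, 12174 in all, and Benjamini-Hochberg adjustment ran over these. Called means an adjusted p under 0.05. The fold change on this scale understates that of low genes. Poisson and Clopper-Pearson intervals (95%) are from SciPy 1.17.1 and cover counting error only. Deviations of same-numbered libraries from their group means had correlations of -0.01, -0.14 and 0.03 across genes. Those of differently numbered libraries ran from -0.23 to 0.21. With 3 libraries per group these values cannot exclude a pairing, and the main test used none. Genes outside the members were named by the smallest root mean square difference or, in the cuticle lists, by the 2 smallest p, except bli-6, which was named after its values were seen. Marker lists are given by counts and sums. The members and lists were chosen with earlier results of these data known. Member sequences were not used here. The alternatives were 2 other pseudocounts, 2 other filters, 2 scalings, limma without trend, library weights, voom, a replicate block, a moulting covariate and leaving out each library.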

Additional observations from a re-analysis of the deposited data

How the results depend on the processing

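In the main test with all 6 libraries 0 members and 0 genes were called, and the same held in 14 of the 17 alternatives. Library weights called 5 members (ram-2, rol-8, sqt-3, dpy-14 and dpy-17) and 3092 genes (25.4%), and the moulting score as covariate called 1 member and 54 genes. Leaving out 1 library gave 0 to 4 members and 0 to 234 genes, the highest of each without Control 2. The replicate block called 0 members and 0 genes. The direction of ram-2, rol-8 and dpy-13 held in every alternative in which they were tested, at -1.50 to -1.04 for ram-2, -1.01 to -0.35 for rol-8 and 0.02 to 0.71 for dpy-13. Leaving out 1 library gave -0.14 to 0.78 for sqt-1, -0.59 to 0.44 for sqt-2, -0.39 to 0.35 for rol-6, -1.54 to 0.11 for sqt-3, -1.36 to 0.048 for dpy-14 and -1.34 to 0.070 for dpy-17. With a pseudocount of 5 sqt-2 was -0.047 and rol-6 was -0.0099, and with library weights they were -0.30 and -0.24. With the moulting covariate sqt-3 was 0.088, dpy-14 was 0.029 and dpy-17 was 0.048. The cause of these reversals was not tested. Of genes at an unadjusted p under 0.05, 68.3% were lower in THz worms, against 50.6% after quantile normalization. Depth limits rol-6, sqt-1, sqt-2 and bli-1, which have 5 or fewer reads in at least 1 library.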
